A study of Mus musculus with 7 samples.

Results

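AP-1 and immediate-early transcription factors were examined as the 10 genes Fos, Fosb, Fosl1, Fosl2, Jun, Junb, Jund, Atf3, Egr1 and Myc, taken by gene symbol, older symbols included, from the m6A peak tables of mouse muscle and of C2C12 myoblasts. The muscle table listed 9 peaks in 4 of them, out of 5412 peaks in 3983 genes, and the C2C12 list held 11 peaks in 7 of them, out of 5433 peaks in 3970 genes. N6-methyladenosine (m6A) is a methyl mark on adenosines of mRNA, and MeRIP-Seq finds it by sequencing RNA fragments captured with an antibody to m6A (IP) next to the uncaptured RNA (input). The muscle libraries came from C57BL/6 mice at day 2 after cardiotoxin (CTX) injury, with 1 IP and 1 input library from METTL3 cKO mice (Pax7CreERT2; METTL3 flox/flox) and 1 of each from CTL mice (Pax7CreERT2; METTL3 wt/wt), all given tamoxifen. METTL3 is the catalytic subunit of the m6A writer, and Pax7CreERT2 deletes it in Pax7-expressing muscle stem cells. Cells of an injured muscle that do not descend from these keep the gene. Ages and the number of mice per library were not given in the sources used here. The C2C12 mouse myoblast line gave 2 IP libraries and 1 input library, and the labels call the genotype of the IP libraries a knockout and that of the input normal.

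AP-1 is a dimer of basic leucine zipper proteins of the Jun, Fos and ATF families. Some of its genes, such as Fos and Junb, are switched on within minutes by growth factors, stress and wounding, without new protein synthesis, and their mRNAs are short-lived, while Fosl1 and Fosl2 follow later and Jund is expressed more steadily. Jun, Junb and Jund are genes without introns. EGR1 is a zinc finger factor and MYC a helix-loop-helix leucine zipper factor that belong to the early wave, and injured muscle, where stem cells leave quiescence and leukocytes enter, is a setting in which such genes are active.

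Neither table held counts, so depth is unknown, and each gave 1 row of values per peak for all its libraries, so no replicate error and no test between samples could be had. The muscle table keeps peaks that passed the authors' own test between the genotypes, and the values of that test were not used here. A gene without a row there can therefore be unmethylated, not expressed, or methylated alike in both genotypes, and these cannot be told apart. The labels name the muscle samples muscle stem cells in 1 field and muscle in another. Of 8 stem cell and myoblast markers 5 had a muscle peak, among them Pax7 and Myod1 but not Myf5, Vcam1 or Cdh15, as did 3 of 7 macrophage and monocyte markers, 2 of 4 fibroblast markers, 1 of 3 neutrophil markers (Csf3r) and 1 of 3 endothelial markers (Cdh5), and 2 of 6 fibre markers, Ttn with 27 peaks and Des with 1 but not Acta1 or Ckm. Over all protein-coding genes the share with a muscle peak was 16.9%. Which cells the peaks below came from was not tested.

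The authors' table lists positions of GGAC, the core of the m6A consensus, in the muscle peaks. Whether it lists every GGAC of a peak was not tested. The sequences below are those around the sites of member peaks that fall in the RefSeq promoter windows of GRCm38.p6, which run from upstream of a gene's start to a short way past it. They are shown because they lie around the annotated starts of Fosl2, Jun and Junb, with the Fosl2 sites upstream of the RefSeq start and those of Jun and Junb after it. They are written 5′ to 3′ on the strand of the gene, with GGAC in capitals. A first stretch of Fosl2 (chr5:32136413-32136442, plus strand) and a second one (chr5:32136447-32136476, plus strand) hold a pair of sites each, and the stretches of Jun (chr4:95052186-95052215, minus strand) and Junb (chr8:84978700-84978729, minus strand) hold 1 each.
Fosl2, first: gcaggggagGGACcgagGGACgcgccgact
Fosl2, second: agagggagGGACtcggtGGACaaccggttc
Jun: tcaggctggataaGGACtcagagttgcact
Junb: ggccgagcactggGGACtttgagggtggcc

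All 6 sites were found at the positions listed by the authors, within 1 base. In 5 of the 6, GGAC was followed by A, C or T, as the consensus asks, and the exception is the site in the first Fosl2 stretch that a G follows. Over all 32851 windows, 84.5% of GGAC on the gene strand was followed by A, C or T. The Fosl2 window of 300 bases held 4 GGAC on the gene strand, a number reached or passed in 3.94% of windows, and the peak listed by the authors lies over the whole of it. At least 1 GGAC was present in 65.6% of all windows on the gene strand and in 87.7% on either strand, and the windows of Jun and Junb held 1 and 2 on the gene strand. A match of letters does not show that the adenosine carries the mark.

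In muscle, 3 Jun genes and 1 Fos gene carried peaks. Jun, Junb, Jund and Fosl2 made 4 of the 10 genes, against 16.9% of the 21896 RefSeq protein-coding genes. Fos, Fosb, Fosl1, Atf3, Egr1 and Myc had no row in the muscle table as used here. In C2C12 myoblasts 7 of the 10 had peaks, against 17.6% of protein-coding genes. The 4 muscle genes were all among these 7 and were joined by Atf3, Egr1 and Myc, so that 4 of 10 had peaks in both tables, against 7.3% of protein-coding genes. Fos, Fosb and Fosl1 had a row in neither. The shares of protein-coding genes count genes expressed or not in these cells, and the part of expression in the difference was not tested. The 10 genes were chosen with earlier results of these data known.

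Jun (ENSMUSG00000052684) encodes the founding AP-1 subunit, which activates transcription as a dimer with a Fos protein. It had 1 muscle peak, on chromosome 4 from 95049660 to 95052222 (GRCm38, minus strand), annotated to the coding sequence (CDS). The fold enrichment of the peak, IP over input as given by the authors' peak caller, was 184, which was rank 486 of 5412 peaks. The peak began at the first base of the annotated gene, ran for 2563 bp and covered 80.4% of its span of 3187 bp, so that it took in untranslated sequence as well as the CDS it was assigned to. It was the 72nd longest muscle peak. It held 16 GGAC sites, of which 4 lay between 94 and 130 bases after the start, and the first pair of these, at 94 and 98, abut each other. From 1126 to 2083 bases after the start no site was listed, the widest gap in the peak.

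Junb (ENSMUSG00000052837) encodes a Jun protein that often opposes c-Jun in growth control and is known to maintain muscle mass. Its muscle peak, on chromosome 8 from 84976910 to 84978718 (minus strand, CDS), had a fold enrichment of 91.4, rank 911. It left free only the first 30 bases and the last base of the gene and covered 98.3% of a span of 1840 bp. The peak held 15 GGAC sites in 1809 bp, or 8.29 per kb, the highest density among the strongest peaks of the 4 genes.

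Jund (ENSMUSG00000071076) encodes the Jun protein that is expressed most steadily and tends to restrain proliferation. Its muscle peak, on chromosome 8 from 70698949 to 70700586 (plus strand, CDS), had a fold enrichment of 95.7, rank 888. In contrast to Jun and Junb, the peak left the 5′ end free: it began 1210 bases after the start and covered 56.9% of a span of 2878 bp. It held 9 GGAC sites, 4 of them between 2369 and 2436 bases after the start. The table also lists a peak of Gm11175 on the opposite strand, from 70699567 to 70700080 with a fold enrichment of 40.8, inside the Jund peak. The library kit marks strand, but whether the peak calling used it is not given in the sources used here, so the reads of the pair may not be separate.

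Fosl2 (ENSMUSG00000029135) encodes FRA-2, a Fos protein that lacks the strong activation domain of c-Fos. It had 6 muscle peaks, all on the plus strand of chromosome 5, in a strong and a weak class. The strongest was annotated to the CDS, from 32146812 to 32154216, and consisted of exon blocks of 265, 108 and 1546 bp. Its fold enrichment was 219, rank 395 and the highest value among all member peaks. It held 12 GGAC sites, 11 of them in the last block. By distance from the start, a C2C12 peak of 425 bp annotated to the 3′UTR falls within this last block. The CDS label may therefore take in untranslated sequence as well. A 5′UTR peak from 32135801 to 32136970 had a fold enrichment of 142, rank 641, and held 8 GGAC sites. This peak began 671 bases upstream of the RefSeq start of the gene, and 6 of its 8 sites, including those of both printed stretches, lie upstream of that start, so the peak begins before the RefSeq model does.

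The other 4 Fosl2 peaks were annotated to the 3′UTR and were weak. From 5′ to 3′ they had fold enrichments of 7.57 (32154426 to 32154666, p = 7.8e-10), 2.45 (32155654 to 32155774, p = 0.00065), 4.81 (32156404 to 32156763, p = 2.5e-19) and 5.01 (32156943 to 32157063, p = 1.9e-07), where p was computed by the authors from the reads of a peak and measures no spread between replicates. All 4 were below the median fold enrichment of all muscle peaks, 12.9, while the CDS and 5′UTR peaks of the same gene were above it. They held 3 GGAC sites in all, and the strongest of them held none. The highest fold enrichment in Fosl2 was 89.4 times the lowest. Of the 17 genes with at least 6 muscle peaks, 3 including Fosl2 had a ratio that high, and the median ratio was 18.0.

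**Figure D1:**
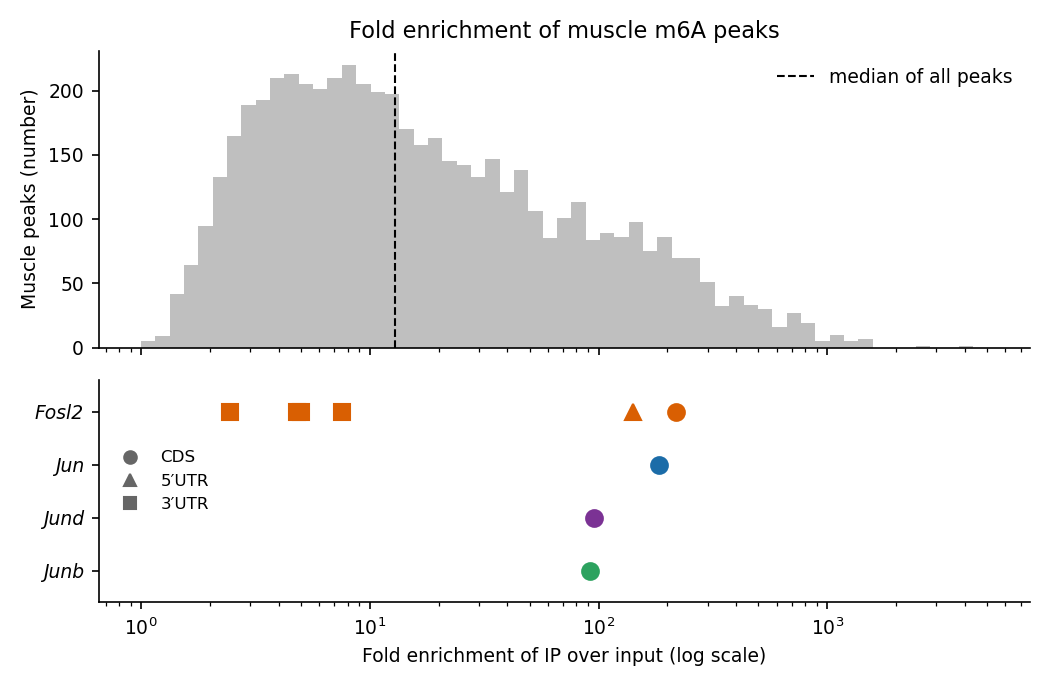
The upper panel counts all 5412 muscle peaks by fold enrichment of IP over input on a log axis, with the median of 12.9 dashed, and the lower panel places the 9 peaks of Fosl2, Jun, Jund and Junb, with the marker giving the annotation. The CDS and 5′UTR peaks sit between 91.4 and 219, and the 4 Fosl2 3′UTR peaks between 2.45 and 7.57.

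Taking the strongest peak of each gene, the median fold enrichment of the 4 muscle genes was 140, against 19.3 over all 3983 genes, whose upper quartile was 75.9. The order was Fosl2 (219), Jun (184), Jund (95.7) and Junb (91.4), and without replicates no error can be put on the steps between neighbours. In rank among genes, Fosl2 was 386th, Jun 473rd, Jund 851st and Junb 872nd. These peaks are also long, and long peaks are strong in this table. The peaks of 1500 bp or more make up 6.32% of all muscle peaks, or 342, and 4 of the 9 member peaks are among them. The median fold enrichment of these 342 was 172, with quartiles of 90.4 and 329, and the 4 member peaks of this length, at 91.4, 95.7, 184 and 219, fell between these quartiles.

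By annotation, 4 of the 9 muscle peaks were in the CDS, 4 in the 3′UTR and 1 in the 5′UTR. Over all muscle peaks, 31.9% were in the CDS, 48.0% in the 3′UTR and 5.14% in the 5′UTR. All member peaks annotated to the 3′UTR belong to Fosl2, and the strongest peak of each of the 4 genes was annotated to the CDS. Each peak carries a single label, and a CDS label does not exclude untranslated sequence. The Junb peak covered 98.3% of its gene span, and the C2C12 list calls part of the same stretch of Jun 3′UTR.

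The 9 member peaks held 63 GGAC sites in 9942 bp, or 6.34 per kb, against 4.63 per kb over all muscle peaks and 5.04 over all CDS peaks. At least 1 site was present in 8 of the 9, against 70.6% of all muscle peaks. These shares were not matched on length: 4 of the 9 are of 1500 bp or more, and the median of all muscle peaks is 360 bp. Among the 342 peaks of 1500 bp or more the median density was 4.94 per kb. Junb, at 8.29, was matched or passed by 16 of these including itself, the Fosl2 CDS peak (6.25) by 86, Jun (6.24) by 88 and Jund (5.49) by 132. All 4 therefore lay above the median of long peaks, and Junb stood near the top. The sites lay close together in some of the member peaks. At least 4 sites within 100 bases occurred in 4 of the 9 member peaks, those of Jun, Junb and Jund and the 5′UTR peak of Fosl2, against 3.1% of all muscle peaks. Among peaks of 1500 bp or more the numbers were 3 of 4 for the members and 14% for all. These comparisons do not match peaks on site density, and the part of density in the bunching was not tested. Base composition was not analysed, and its part in these densities was not tested.

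**Figure D2:**
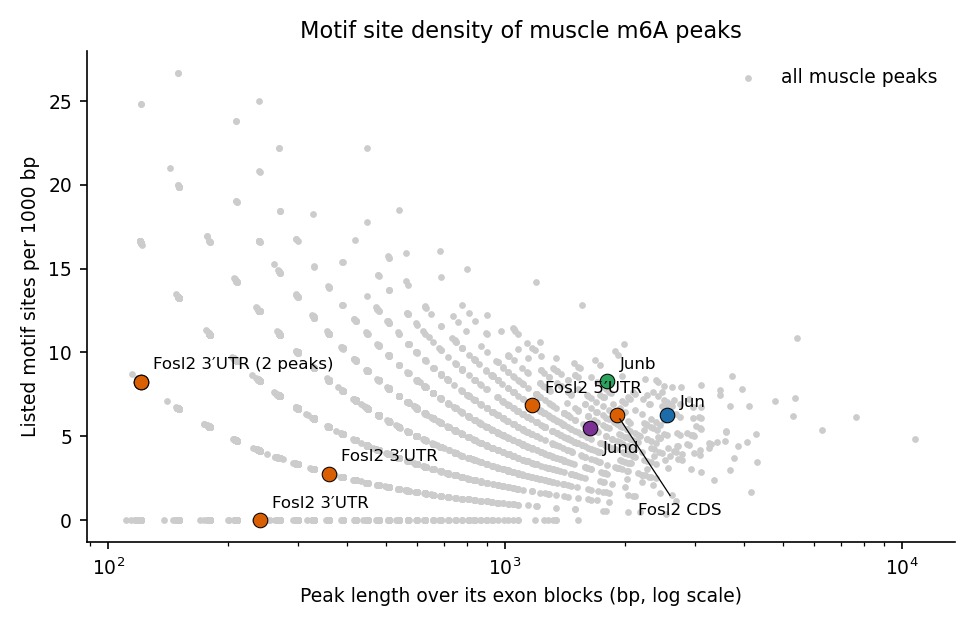
Each grey point is 1 of the 5412 muscle peaks, by its length over exon blocks in bp on a log axis and its GGAC sites per kb, and the coloured points are the 9 peaks of the 4 genes. The strong peaks of Jun, Junb, Jund and Fosl2 lie at 1170 to 2563 bp and between 5.49 and 8.29 sites per kb, and the Fosl2 3′UTR peaks lie at 121 to 360 bp with 0 or 1 site each.

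In C2C12 myoblasts the list gives positions, annotation and the distance of the peak centre to the transcription start site, with no enrichment, so the genes were ranked by the length their peaks cover. None of the 11 member peaks fell inside the GRCm38 span of its gene, as was true of most peaks of the list. The positions were therefore not read as GRCm38, and only distances are given. The submitters' notes name mm10, which is GRCm38, so the build of this list is not settled. Jun came first of the 7 with 2 peaks covering 2046 bp, rank 34 of 3970 genes. One of them, annotated to the 5′UTR, was 1346 bp long and ran from 22 bases upstream of the start to 1324 bases after it, the 31st longest of the list. The other, annotated to the 3′UTR, was 700 bp long and ended 2375 bases after the start. Junb followed with a single coding-exon peak of 1715 bp, from 10 to 1724 bases after the start, the 16th longest of 5433, which gave it rank 57. The median covered length over all genes was 341 bp.

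Egr1 encodes a factor that is induced in activated muscle stem cells and many other stimulated cells, and it covered 1085 bp with coding-exon peaks of 818 and 267 bp on chromosome 18 (rank 232). Jund covered 1013 bp with a peak of 375 bp annotated to the 5′UTR and one of 638 bp in the coding exon (rank 283). Myc, which drives growth and proliferation, covered 819 bp with coding-exon peaks of 219 and 600 bp, 2568 and 4420 bases from the start (rank 454). Atf3, a stress-induced factor that mostly represses, had 1 peak of 568 bp in the 3′UTR, 12434 bases from the start in a gene of 13038 bp (rank 1009). Fosl2 came last with 1 peak of 425 bp in the 3′UTR (rank 1591). All 7 were above the median covered length. Jun, Jund, Egr1 and Myc had more than 1 peak, as did 25.8% of the 3970 genes. The 11 peaks were annotated to coding exons in 6 cases, the 3′UTR in 3 and the 5′UTR in 2. None was in an intron, where 12.4% of the list lies, but those of Jun, Junb and Jund could not be, as these genes lack introns. The order of the Jun and Fos genes differed between the tables: Fosl2 had the highest muscle fold enrichment and the shortest covered length in C2C12, but these are different measures and their orders were not compared by a test.

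**Figure D3:**
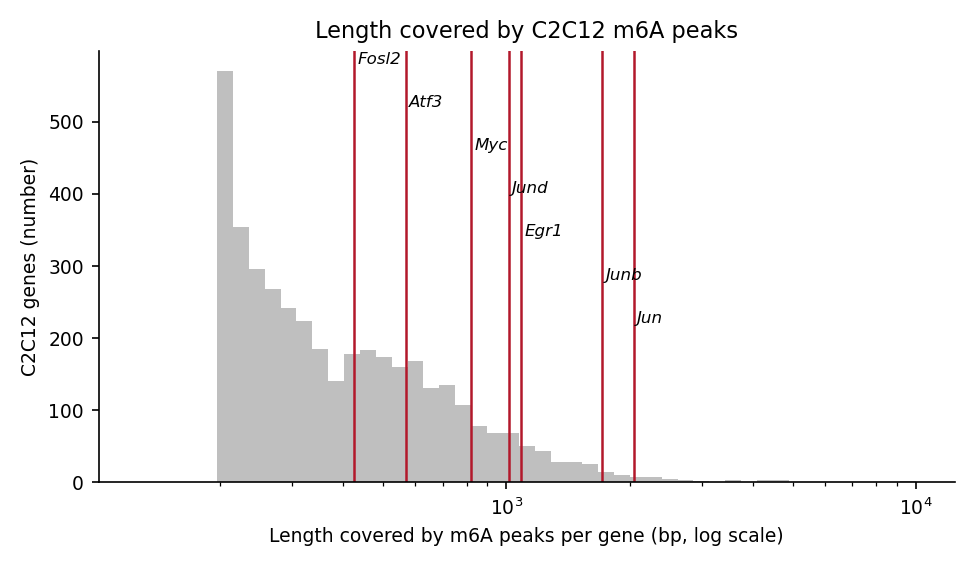
The bars count the 3970 C2C12 genes by the length their m6A peaks cover in bp, on a log axis, and each red line marks 1 of the 7 genes with peaks. The lines run from 425 bp for Fosl2 to 2046 bp for Jun, all to the right of the median of 341 bp.

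For the 4 genes in both tables, peaks were set side by side by distance from the start site, each table by its own annotation. In Jun, 2024 of the 2563 bp of the muscle peak (79.0%) and 98.9% of the C2C12 length fell at the same distances. The stretch of 351 bp between the C2C12 peaks was part of the single muscle peak. In Junb the shared stretch was 1694 bp, which is 93.6% of the muscle peak and 98.8% of the C2C12 peak. In Jund it was 902 bp, which is 55.1% of the muscle peak and 89.0% of the C2C12 length. In Fosl2 the C2C12 peak lay wholly at the distances of the last CDS block in muscle and covered 10.8% of the muscle peak length. The annotations of the same stretch differed, since the muscle table calls the Jun peak and this Fosl2 block CDS while the C2C12 list calls them UTR. In Jund, the C2C12 5′UTR peak (1098 to 1474 bases after the start) runs into the muscle CDS peak, which begins at 1210. Counts by annotation are therefore not comparable between the tables.

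The GGAC sites of the muscle peaks fell mostly at the distances that the C2C12 peaks also cover. In Jun and Junb this held for all 16 and all 15 sites. The 539 bp of the Jun muscle peak outside the shared stretch held none. In Jund 8 of 9 sites lay in the shared stretch, at 8.87 per kb, against 1.36 per kb in the rest of the muscle peak. In Fosl2 the figures were 6 of 23 sites, at 14.2 against 4.85 per kb. Over the 4 genes 45 of 63 sites lay at shared distances. The shared stretch was 79.0% of the muscle peak length in Jun, 93.6% in Junb, 55.1% in Jund and 10.8% in Fosl2. In Jun and Junb most sites would thus fall there even if evenly spread. The same overlap was not computed for other genes with peaks in both tables. When the C2C12 start sites were moved by 50 or 100 bases either way, this number fell to 42 or 43. In Jun, 15 of 16 sites were then shared under the moves away from the start. In Fosl2, 5 and 4 sites were shared under moves of 50 and 100 bases toward the start, and 6 under the others. The shared density in Fosl2 fell to 11.8 and 9.43 per kb under these moves toward the start, against 5.13 and 5.42 in the rest. In Junb, where only 95 to 215 bp then lay outside, 1 site fell outside under each shift, and a move by 50 or 100 bases away from the start made the density outside (10.5 per kb) higher than inside (8.17).

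**Figure D4:**
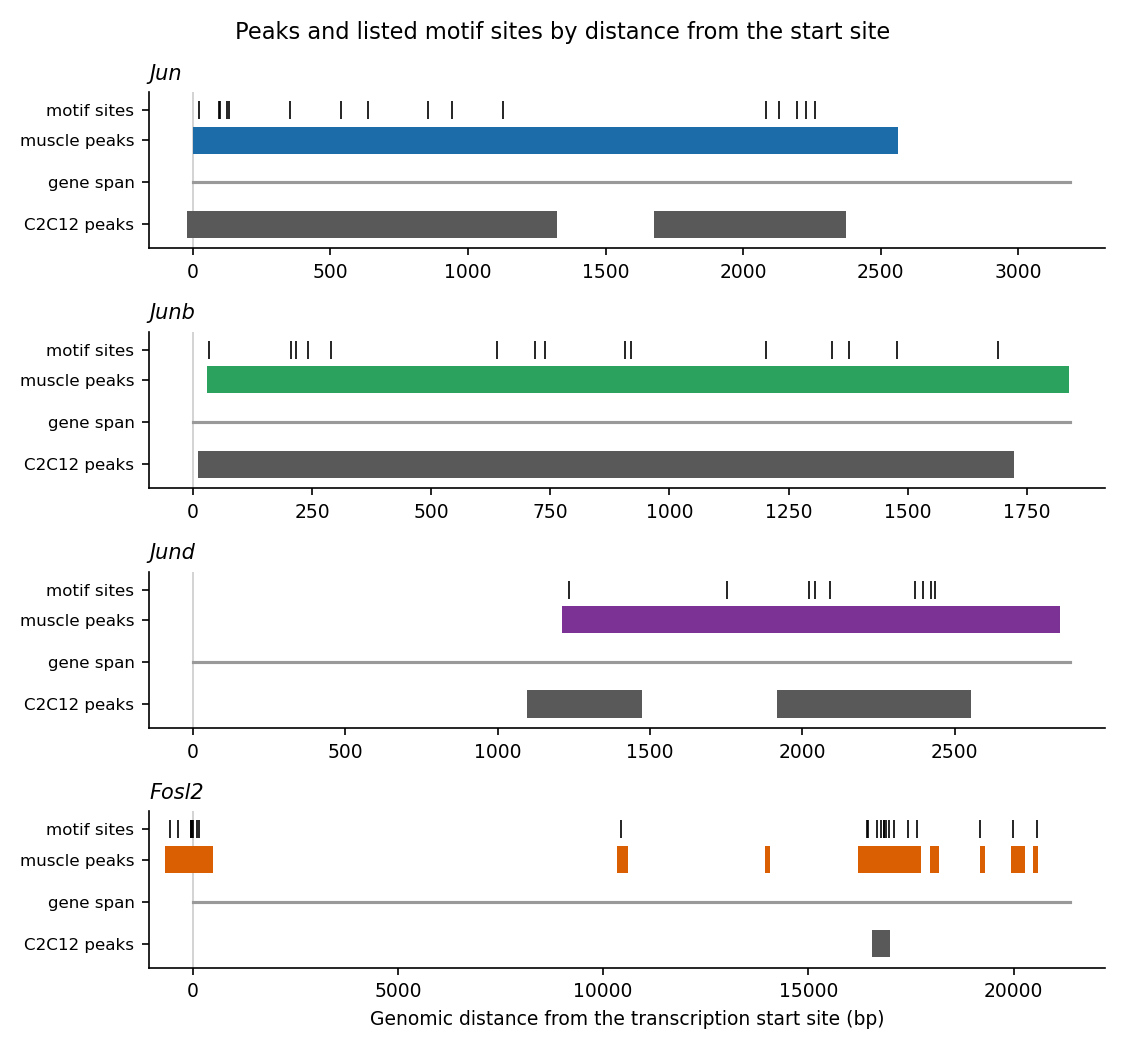
Each panel shows 1 gene by genomic distance in bp from its transcription start site, with ticks for the listed GGAC sites, coloured bars for muscle peaks (exon blocks), a line for the RefSeq gene span and grey bars for C2C12 peaks. Muscle and C2C12 bars line up over most of Jun and Junb and over the 3′ part of Jund, and the single C2C12 peak of Fosl2 sits under the block from 16199 to 17744 bp.

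Other genes of the same pathways were taken from lists of AP-1 partners and relatives, further immediate-early genes, the Myc network and upstream regulators. Of 26 AP-1 partners and relatives, 9 (34.6%) had a muscle peak and 11 (42.3%) a C2C12 peak. Nfe2l1 and Nfe2l2, stress-response factors of the bZIP superfamily, had muscle fold enrichments of 81.6 and 64.1, and Nfe2l1 had the most C2C12 peaks of the list, 4 covering 2075 bp. Bach1, a repressor regulated by heme, had 3 C2C12 peaks covering 646 bp, and Jdp2, which dimerises with Jun and represses AP-1 targets, had 2 covering 1017 bp and no muscle peak.

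Of 42 further immediate-early genes, 23 (54.8%) had a muscle peak, 27 (64.3%) a C2C12 peak and 17 both, the highest shares among the 4 lists. Their median fold enrichment in muscle was 68.2. Ier5l (824, in the CDS), Gadd45g (596, in the 3′UTR) and Ier2 (498, in the 3′UTR) had the highest muscle fold enrichments, all above that of any of the 10 genes. Ier2 and Ier5l are early response genes, and Gadd45g is a stress sensor of growth arrest. In C2C12, Klf4, a zinc finger factor of pluripotency and differentiation, had 3 peaks covering 1069 bp, Ccn1, a secreted matrix protein, 3 covering 858 bp, and Rhob, a small GTPase, 2 covering 1671 bp.

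Of 20 genes of the Myc network, 6 (30%) had a muscle peak and 5 (25%) a C2C12 peak. Mga, which pairs with Max in place of Myc, had a muscle fold enrichment of 148, Mxd1, a Max partner that opposes Myc, 38.1, and the ubiquitin ligase Huwe1 24.3. In C2C12, Mga had 1 peak of 244 bp, Fbxw7, which marks Myc and Jun for degradation, 1 of 341 bp, and the Myc cofactor Trrap 1 of 237 bp. Of 20 upstream regulators, 8 (40%) had a muscle peak and 12 (60%) a C2C12 peak. Mrtfa, a coactivator of the serum response factor that drives Fos and Egr1, had a muscle fold enrichment of 746 and 2 C2C12 peaks covering 782 bp. Rps6ka3, a kinase downstream of ERK, had 71.1 with no GGAC site in its peak, and Elk3, an ETS partner of the serum response factor, 63.2. Nab2, a corepressor of Egr1, and Men1, which binds JunD, had 2 C2C12 peaks each, covering 654 and 458 bp. The lists pooled had 46 of 108 genes (42.6%) in the muscle table and 55 (50.9%) in the C2C12 list, both above the shares of all protein-coding genes, as were the shares of the 10 genes. The lists and the 10 genes were chosen with earlier results of these data known, so the choice may itself have raised these shares. How far expression or transcript length goes with the shares was not tested.

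**Figure D5:**
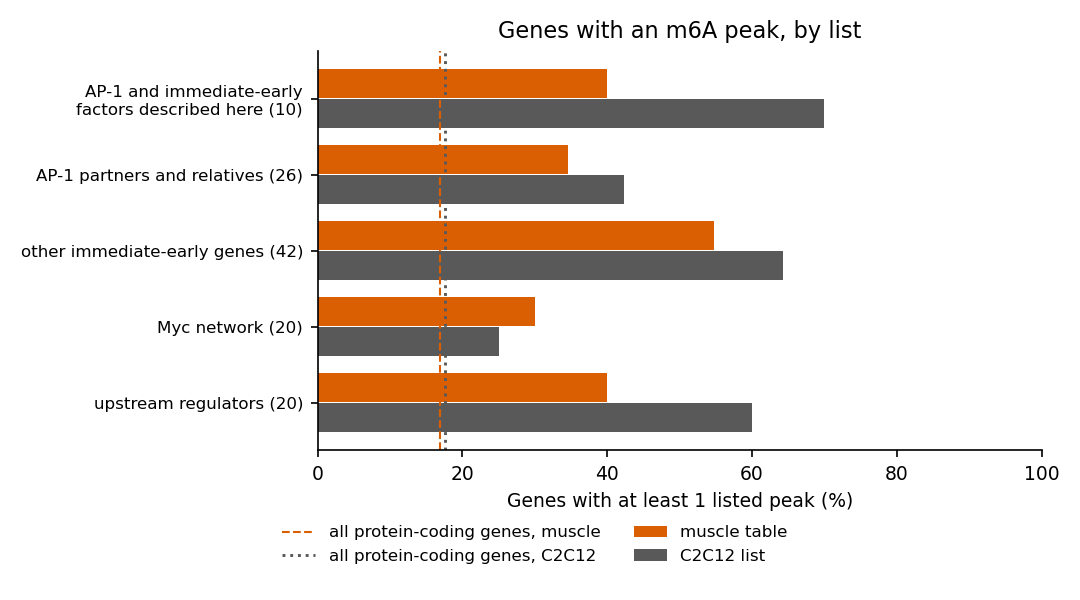
Bars give the percent of each list with at least 1 listed peak in muscle (orange) and C2C12 (grey), with the number of genes in parentheses, and the vertical lines give the same for all protein-coding genes (16.9% and 17.6%). All bars pass their line, and the further immediate-early genes have the longest muscle bar, 54.8%. The lists were chosen with earlier results of these data known.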

How the data were processed

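m6A MeRIP-Seq libraries were sequenced by the authors, who deposited 1 peak table for muscle and 1 peak list for C2C12. The submitters' processing notes name TopHat, MACS2 and mm10, with no role or version, and the muscle column names are those of the R package exomePeak. The authors deposited for each muscle peak its fold enrichment (a ratio of IP over input) and its p-value. The columns of the authors' comparison between genotypes (log2 fold, p and FDR) were not used, nor were log10 columns with spreadsheet errors. Of the muscle peaks with a matched gene, 98.4% overlapped it on GRCm38, and of the C2C12 peaks 9.41%. Distances to start sites were computed on the RefSeq annotation for muscle and taken from the list for C2C12. In 1021 of 1023 C2C12 transcripts with more than 1 peak, the distances gave 1 start site within 1 base when read from the peak centre. Promoter sequences were those of RefSeq (GRCm38.p6), which held 7 of the 10 genes, and Egr1, Fosl1 and Myc were not among these.

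No test was made, since each genotype has 1 IP library and a peak has no value for each library. Python 3.11.15, pandas 2.3.3, numpy 2.4.6 and matplotlib 3.10.9 were used, and ranks and window counts were tested on simulated data. All 10 genes were described. From each other list the 3 genes with the highest muscle fold enrichment and the 3 with the most C2C12 peaks, ties taken by covered length, were named, except 1 that is not reported here. The members and lists were chosen with earlier results of these data known. Alternatives covered the choice of peaks, the symbols and the start site.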

Additional observations from a re-analysis of the deposited data

How the results depend on the processing

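The median fold enrichment of the 4 muscle genes, 140 from the strongest peak of each, was 93.6 with the mean over the peaks of a gene and 91.4 over all 9 peaks, because the weak 3′UTR peaks of Fosl2 then count. It did not change with the longest peak of each gene. The counts of the 10 genes with peaks did not change with current symbols only, with coding and UTR peaks only, or without the peaks under the median in fold enrichment (muscle) or length (C2C12). Those of the other lists stayed within 1.5 times with current symbols only, without muscle peaks under the median in fold enrichment, and with C2C12 peaks in coding exons and UTRs only. The shift of the C2C12 start sites was chosen after seeing the data. A wider motif, a search of the exon blocks for sites, and the RefSeq annotation of exons were not run, since no genome was used here. No paired analysis was possible because a peak has 1 value over all libraries. The depth is unknown, so its effect on the weak Fosl2 3′UTR peaks could not be measured.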
